A study of Mus musculus with 30 samples.

Results

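The genes described here are Hoxa5, Hoxa7, Hoxa9, Hoxa10, Hoxb4, Meis1, Pbx3, Erg and Myb, 9 transcriptional regulators chosen by symbol. All 9 were among the 11740 genes of the stem and progenitor cell table, and 7 of them, all but Hoxa5 and Hoxa10, were among the 11275 genes of the bone marrow table. Erg and Myb are not homeobox genes, so the set is wider than Hox, Meis and Pbx. RNA was sequenced from mouse C57BL/6 cells in 24 libraries of the 30 in the series, and the mesenchymal stromal libraries were not used here. LSK cells are the lineage-negative, Sca1-positive, Kit-positive fraction of bone marrow, which holds the haematopoietic stem cells and earliest progenitors. They came from 4 groups of 3 libraries, all labelled as taken before myeloid disease, with cells collected some 2 months after transplant where mice were transplanted. The WT group was wild type marrow with no transplant, no shRNA and no ENU. ENU is N-ethyl-N-nitrosourea, an alkylating mutagen. The transplanted WT group was wild type marrow carrying an shRNA against luciferase, a control, in wild type recipients without ENU. The EAP group was Egr1+/-, Apc del/+ marrow carrying an shRNA against Trp53, in wild type recipients without ENU. The group called EAP with ENU had the same alleles and shRNA, with ENU given to both the donor and the recipient. Bone marrow came from 6 mice with MDS, a myelodysplastic syndrome, and 6 with AML, acute myeloid leukaemia. Every marrow donor was Egr1+/-, Apc del/+ and every recipient was wild type. The MDS mice carried the luciferase shRNA and all had ENU to donor and recipient. The AML mice carried the Trp53 shRNA, and 3 of them (AML 1, 4 and 5) had ENU to donor and recipient, AML 6 had it in the recipient only, and 2 (AML 2 and 3) had none. Disease, Trp53 knockdown and part of the ENU exposure therefore changed together between MDS and AML and cannot be told apart. The labels name no sort that separates donor cells from the recipient's own.

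Hox proteins are homeodomain transcription factors encoded in clusters, and they bind DNA together with TALE homeodomain partners of the Pbx and Meis families. In blood formation the HoxA genes and Meis1 are active in stem cells and early progenitors and are switched off as cells mature, and Hoxa9 with Meis1 is a known driver pair in several acute leukaemias. Erg, an Ets family factor, and Myb are each needed to keep haematopoietic stem cells, and high Erg or Myb also marks some leukaemias.

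The promoters of Hoxa9, Meis1, Erg and Myb are shown as 1 example each of a Hox, a TALE, an Ets and a Myb family member among the genes measured in both tables. Each line gives the 250 bases before a RefSeq transcription start (RefSeq, GRCm38.p6), 5′ to 3′ on the gene's own strand, in lower case with motif matches in capitals. The motifs searched, on both strands, were TGATNNAT for a Hox-Pbx pair, TGACAG for Meis, CCGGAA for Ets factors, TAACNG for Myb and TATAAA for a TATA box, and no matches overlapped in these windows. The windows are chr6:52227371-52227620 for Hoxa9, chr11:19018970-19019219 for Meis1, chr16:95459349-95459598 for 1 of the 3 Erg starts and chr10:21160985-21161234 for Myb, all on the minus strand.
Hoxa9: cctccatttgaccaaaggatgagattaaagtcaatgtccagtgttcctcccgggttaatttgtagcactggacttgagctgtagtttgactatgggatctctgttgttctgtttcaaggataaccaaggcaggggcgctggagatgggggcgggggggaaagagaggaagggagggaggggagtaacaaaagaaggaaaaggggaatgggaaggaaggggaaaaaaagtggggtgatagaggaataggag
Meis1: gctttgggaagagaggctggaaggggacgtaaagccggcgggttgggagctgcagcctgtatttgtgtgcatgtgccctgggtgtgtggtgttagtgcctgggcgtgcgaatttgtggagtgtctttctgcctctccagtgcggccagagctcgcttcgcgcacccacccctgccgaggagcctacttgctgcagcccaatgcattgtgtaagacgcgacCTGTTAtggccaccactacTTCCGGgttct
Erg: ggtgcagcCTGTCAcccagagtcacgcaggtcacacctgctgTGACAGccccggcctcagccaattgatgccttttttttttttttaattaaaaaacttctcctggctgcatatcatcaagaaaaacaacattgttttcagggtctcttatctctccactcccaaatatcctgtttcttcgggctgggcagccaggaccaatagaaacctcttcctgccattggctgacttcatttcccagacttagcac
Myb: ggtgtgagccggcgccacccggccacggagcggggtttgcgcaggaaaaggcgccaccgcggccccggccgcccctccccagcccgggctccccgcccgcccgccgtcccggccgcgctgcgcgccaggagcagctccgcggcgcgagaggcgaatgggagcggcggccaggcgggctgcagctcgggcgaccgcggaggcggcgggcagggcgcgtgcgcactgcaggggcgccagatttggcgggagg
The Meis1 window held a Myb motif whose first base lay 30 bases before the start and an Ets motif 11 bases before it, and its last 16 bases fall in an annotated Meis1 exon. The Erg window held Meis motifs at 242 and 208 bases before its start, and it was picked for them after the search. It lies inside the gene, and the other 2 Erg windows held no Meis motif: chr16:95586594-95586843 had a Myb motif 32 bases before its start and chr16:95530366-95530615 a TATA match 46 bases before its start. The Hoxa9 window also lies inside its gene, outside the annotated exons. The Hoxa9 and Myb windows held none of the motifs, and they differed in base composition. G or C made up 49.6% for Hoxa9 and 81.2% for Myb, against a median of 52.4% over all windows. Windows were found for 8 of the 9 members, 11 windows in all, and Pbx3 had none. Among the 11, the Hox-Pbx motif was in 0, Meis in 1, Ets in 2, Myb in 2 and TATA in 2. Over all 32851 windows the shares with a match were 7.68% for Hox-Pbx, 15.9% for Meis, 12% for Ets, 19.8% for Myb and 12.4% for TATA. These are matches of letters only.

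The 4 HoxA members lie in 1 cluster (mm10, GENCODE vM21, minus strand), with Hoxa5 at chr6:52201754-52204587, Hoxa7 at chr6:52214491-52221854, Hoxa9 at chr6:52223100-52231089 and Hoxa10 at chr6:52231197-52240854. Hoxb4 lies in the HoxB cluster at chr11:96318267-96321638 on the plus strand, and Meis1 at chr11:18879817-19018985 on the minus strand. Pbx3 is at chr2:34171457-34373142, Erg at chr16:95359169-95586593 and Myb at chr10:21124935-21160984, all on the minus strand. The antisense gene Hoxaas3 overlaps Hoxa5 and Hoxa7, and Hoxa3 overlaps Hoxa5 on the same strand. Antisense genes also overlap Meis1, Pbx3 and Myb. The libraries came from a stranded kit, but the sources used here do not say whether counting used the strand, so values of these members may include reads of the overlapping genes.

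Values are the deposited ones, scaled to library size by the authors. They summed to between 808377 and 1437201 in the LSK libraries and between 803746 and 1118648 in the marrow libraries. In the marrow table they were whole multiples of 1 read, which gave 17341986 to 21698808 reads per library. Depth is unknown for the LSK table. Trp53 had LSK values of 213 to 349 in WT, 247 to 370 in transplanted WT, 65.5 to 132 in EAP and 70.6 to 173 in EAP with ENU, so the libraries with the Trp53 shRNA all lay below those without it. The difference of EAP from transplanted WT was -1.64 ± 0.38 (log2, SE, limma adjusted p = 0.655 over all genes). In marrow it ranged from 43.2 to 97.9 in MDS and from 23.0 to 58.0 in AML, with overlap. Egr1 and Apc, each with 1 altered copy in the EAP, MDS and AML mice, overlapped between EAP and transplanted WT, with Egr1 at 133 to 188 in transplanted WT and 75.0 to 840 in EAP, and Apc at 4.31 to 8.15 and 5.41 to 11. The 10 LSK defining genes, Kit and Ly6a (Sca1) among them, were all present, with sums of 2462 to 3959 per LSK library. 3 LSK libraries stood apart, WT 2, transplanted WT 3 and EAP 1. Their summed values were 1130054 to 1437201 against 808377 to 1034526 in the other 9, and their deviations from their group means correlated at 0.695 to 0.719. By median correlation with the other LSK libraries, WT 2 (0.9055) and EAP 1 (0.9066) were lowest. EAP 2 (0.9327) and WT 1 (0.9423) lay below transplanted WT 3 (0.9452). EAP 2, with the lowest summed value, stays in the fits that leave out the 3. EAP 1 also carried a transplant label of WT marrow, against its other labels. Among the AML libraries, AML 1 had a neutrophil marker sum of 120145, above the 60342 to 99474 of MDS, where AML 2 to 6 had 461 to 28282. AML 3 had a B cell marker sum of 2426, against 56 to 195 in the other marrow libraries. Each marrow library carries its own mouse tag, but the LSK labels name no mouse, so p-values there measure only the spread between libraries, which may be technical.

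Levels were set side by side per kilobase of exon, which assumes that values rise with exon length. That assumption was not tested in either table. On this scale the LSK order over all 12 libraries began with Myb at a mean of 37.8 value units per kilobase. Hoxa9 was at 19.4, Meis1 at 16.4 and Hoxa7 at 12.4. Erg followed at 9.64, Hoxa10 at 8.99, Hoxa5 at 3.78, Pbx3 at 0.913 and Hoxb4 at 0.809. Myb stood above 83.0% of the genes of that table and Hoxb4 above 16.2%. In bone marrow the order was Myb at 29.6, Erg at 22.7, Hoxb4 at 2.70, Pbx3 at 1.35, Hoxa7 at 0.696, Meis1 at 0.386 and Hoxa9 at 0.312. Hoxa9 there stood above 1.23% of genes and Meis1 above 1.97%. On this scale Hoxa9 and Meis1 were thus below only Myb among the members in LSK cells and were the lowest 2 in bone marrow. The 2 tables were normalised separately and were not tested against each other.

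In LSK cells Hoxa9, the HoxA gene most linked to leukaemic self-renewal, ranged from 56.0 to 280 over the 12 libraries. Its values were 84.9, 280 and 82.4 in WT, and 78.9, 68.3 and 126 in transplanted WT. The EAP libraries had 165, 148 and 79.5, and those of EAP with ENU had 74.1, 56.0 and 59.4. All 3 libraries with ENU lay below all the EAP libraries, where 5.98% of genes were separated in that direction. They also lay below all the WT libraries. That pair of groups was not compared, so no share of all genes was taken for it. Transplant, shRNA, alleles and ENU differ together between them. Every other pair of groups overlapped. WT 2, EAP 1 and transplanted WT 3 were 3 of the 4 highest libraries, with EAP 2 between them at 148. EAP 2 had the highest sum of immediate early genes, 21386, against 2178 to 11269 in the other LSK libraries, and whether this bears on Hoxa9 was not tested.

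Hoxa10, which acts on progenitor expansion, had values of 33.5, 46.7 and 29.7 in WT and of 27.0, 27.9 and 27.7 in transplanted WT. In EAP it had 29.8, 34.8 and 33.2, and in EAP with ENU 28.3, 16.7 and 17.6. The transplanted WT libraries were nearly equal, and EAP with ENU replicates 2 and 3 held the lowest values of the 12. Hoxa7, its neighbour in the cluster, was at 32.5, 45.8 and 26.2 in the WT libraries, at 38.1, 30.2 and 36.8 in those of transplanted WT, at 46.1, 42.7 and 34.1 in those of EAP and at 31.2, 28.4 and 34.3 in those of EAP with ENU. All groups overlapped for Hoxa7. Hoxa5 was at 8.10, 3.29 and 10.1 in the WT libraries, at 8.44, 9.45 and 6.26 in those of transplanted WT, at 4.09, 9.0 and 7.79 in those of EAP and at 6.60, 5.48 and 6.48 in those of EAP with ENU. All groups overlapped for Hoxa5, and its 2 lowest values were in WT 2 and EAP 1, where Hoxa9 was at its highest. Hoxb4, known for expanding stem cells when overexpressed, was low throughout at 1.00 to 3.45, and its groups all overlapped.

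Meis1, the cofactor that stabilises Hox binding, was at 253, 169 and 228 in the WT libraries, at 169, 169 and 100 in those of transplanted WT, at 135, 198 and 184 in those of EAP and at 171, 134 and 161 in those of EAP with ENU. WT 1 and WT 3 lay above every other library. Pbx3, a Pbx partner of Hoxa9, was at 3.24, 2.04 and 2.41 in the WT libraries, at 6.42, 7.67 and 3.46 in those of transplanted WT, at 0.421, 7.90 and 7.94 in those of EAP and at 5.6, 8.61 and 11.2 in those of EAP with ENU. WT was the lowest group apart from EAP 1, whose value was the lowest of all.

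Erg was at 41.3, 25.1 and 42.9 in the WT libraries, at 37.0, 33.3 and 11.2 in those of transplanted WT, at 17.2, 47.1 and 42.7 in those of EAP and at 38.8, 30.5 and 33.8 in those of EAP with ENU. Its 3 lowest values were exactly the 3 libraries that stood apart, 11.2 to 25.1 against 30.5 to 47.1 in the other 9. Myb was at 444, 322 and 478 in the WT libraries, at 304, 291 and 229 in those of transplanted WT, at 211, 431 and 326 in those of EAP and at 313, 320 and 382 in those of EAP with ENU. WT lay above transplanted WT in every library. In the same 3 libraries Hoxa9 was 126 to 280, against 56.0 to 148 elsewhere, and Myb 211 to 322, against 291 to 478.

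**Figure D1:**
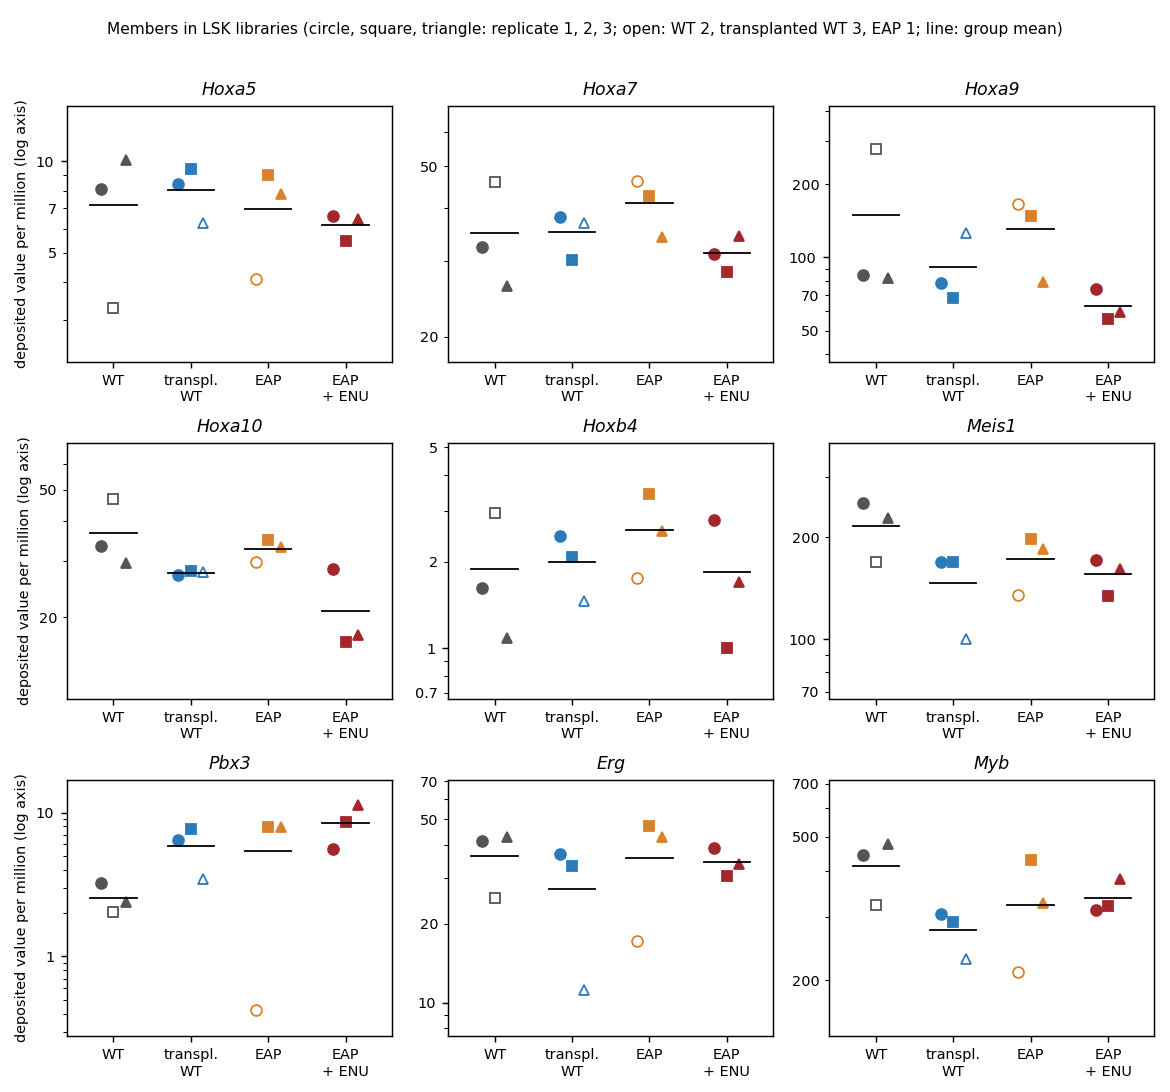
Values of the 9 members in the 12 LSK libraries, 1 panel per gene, with the 4 groups on the x axis and the deposited value on a log y axis. Symbols are single libraries, open symbols are WT 2, transplanted WT 3 and EAP 1, and lines are group means; the open symbols are the 3 lowest for Erg, at 11.2 to 25.1.

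Transplantation was examined by setting transplanted WT against WT LSK cells. The transplant and the luciferase shRNA differed together here and cannot be told apart. None of the 9 members passed the test (limma on log2(value + 1), Benjamini-Hochberg adjusted p over all genes, threshold 0.05), with 3 of 11730 genes called, or 0.0256%, and 0 of the 9 at an unadjusted p under 0.05, against 855 genes or 7.29%. The largest differences were Pbx3 at 0.90 ± 0.62 (log2, SE, adjusted p = 0.839), Myb at -0.58 ± 0.28 (adjusted p = 0.710) and Meis1 at -0.58 ± 0.27 (adjusted p = 0.688). The groups did not overlap for 3 members, Pbx3 higher and Myb and Hoxa10 lower, where 16.1% of all genes were separated in this way, 7.71% higher and 8.42% lower. The median difference of the 9 was -0.37, against 0.00 over all genes. Without WT 2, transplanted WT 3 and EAP 1, which leaves 2 libraries in each of 3 groups, 490 genes were called, and still no member: Myb was at -0.63 ± 0.17 (adjusted p = 0.0695), Pbx3 at 1.08 ± 0.30 (adjusted p = 0.0732) and Meis1 at -0.50 ± 0.14 (adjusted p = 0.0776). Neutrophil marker sums were 2025 to 2195 in WT and 3225 to 7280 in transplanted WT, and LSK defining gene sums were 2979 to 3959 and 2758 to 2999; their part in these differences was not tested. In bulk RNA, fewer cells of a type and less RNA per cell cannot be told apart.

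The effect of the EAP genotype was examined by setting EAP against transplanted WT LSK cells, with the Trp53 shRNA and the 2 heterozygous alleles differing together. None of the 9 members passed, with 3 of 11730 genes called, or 0.0256%, and 0 of the 9 at an unadjusted p under 0.05, against 424 genes or 3.61%. The largest value was Hoxa9 at 0.50 ± 0.46 (log2, SE, adjusted p = 1.00), and 7 of the 9 estimates were above 0, with a median of 0.23 against -0.02 over all genes. The groups did not overlap for 1 member, Hoxa10, which was higher in EAP at a mean of 32.6 against 27.5, where 6.98% of genes were separated and 3.8% of genes were separated in that direction. The sign of Pbx3 turned with EAP 1, from -0.45 ± 0.62 with it to 0.44 without it, and that of Hoxa5 from -0.23 ± 0.39 to 0.07. Neutrophil marker sums were 18619, 2896 and 3456 in EAP 1 to 3, and monocyte sums 2002, 409 and 791. Whether this bears on the change of sign was not tested. Immediate early genes differed in the same contrast, with 13 of 13 above 0, a median of 0.86 and sums of 8546 to 21386 in EAP against 5008 to 6010 in transplanted WT. Of 13 T and NK cell markers 12 were below 0, and none of either list passed. Their part in the member values was not tested. Without all 3 libraries that stood apart, 1 gene was called, no member passed, and Hoxa9 was at 0.56 ± 0.26 (adjusted p = 0.351).

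ENU was examined within EAP LSK cells. None of the 9 members passed, and no gene of 11730 was called, 0%, with 1 of the 9 at an unadjusted p under 0.05, against 617 genes or 5.26%. Hoxa9 and Hoxa10 were the 2 members whose groups did not overlap, both lower with ENU, where 12.7% of genes were separated and 5.98% were in that direction. The Hoxa9 means were 63.2 ± 9.64 with ENU and 131 ± 45.3 without (SD, n = 3 each), a difference of -0.98 ± 0.46 (log2, SE, limma adjusted p = 0.909). The Hoxa10 means were 20.9 ± 6.47 and 32.6 ± 2.58 (SD, n = 3 each), a difference of -0.66 ± 0.25 (limma unadjusted p = 0.0252, adjusted p = 0.909). Hoxa7 was at -0.37 ± 0.24 and Hoxb4 at -0.36 ± 0.34, so the estimates of all 5 Hox members were below 0, with Hoxa5 nearest at -0.09 ± 0.39. Pbx3 was at 0.92 ± 0.62, which became 0.04 without EAP 1. Erg moved from 0.06 ± 0.47 to -0.38 and Myb from 0.12 ± 0.28 to -0.15 without that library, whereas Hoxa9 was at -0.78 ± 0.24 (adjusted p = 0.124) and Hoxa10 at -0.72 ± 0.22 (adjusted p = 0.123) without all 3 libraries that stood apart. Immediate early gene sums were 8546 to 21386 in EAP and 2178 to 8592 with ENU. Neutrophil marker sums were 18619, 2896 and 3456 in EAP 1 to 3 and 7290 to 10545 with ENU. The part of either list in the Hox values was not tested.

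EAP with ENU was also set against transplanted WT, a comparison that shares libraries with the previous ones. None of the 9 members passed, with 2 of 11730 genes called, or 0.0171%, and 0 of the 9 at an unadjusted p under 0.05, against 376 genes or 3.21%. The estimates ran from -0.48 ± 0.46 for Hoxa9 to 0.48 ± 0.47 for Erg (limma, adjusted p = 1.00 for each). Myb was the only member whose groups did not overlap, at a mean of 339 against 275, where 18.5% of genes were separated and 9.9% were in that direction. Without the 3 libraries that stood apart 6 genes were called, no member passed, and Erg was at -0.04 ± 0.14 (adjusted p = 0.965).

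**Figure D2:**
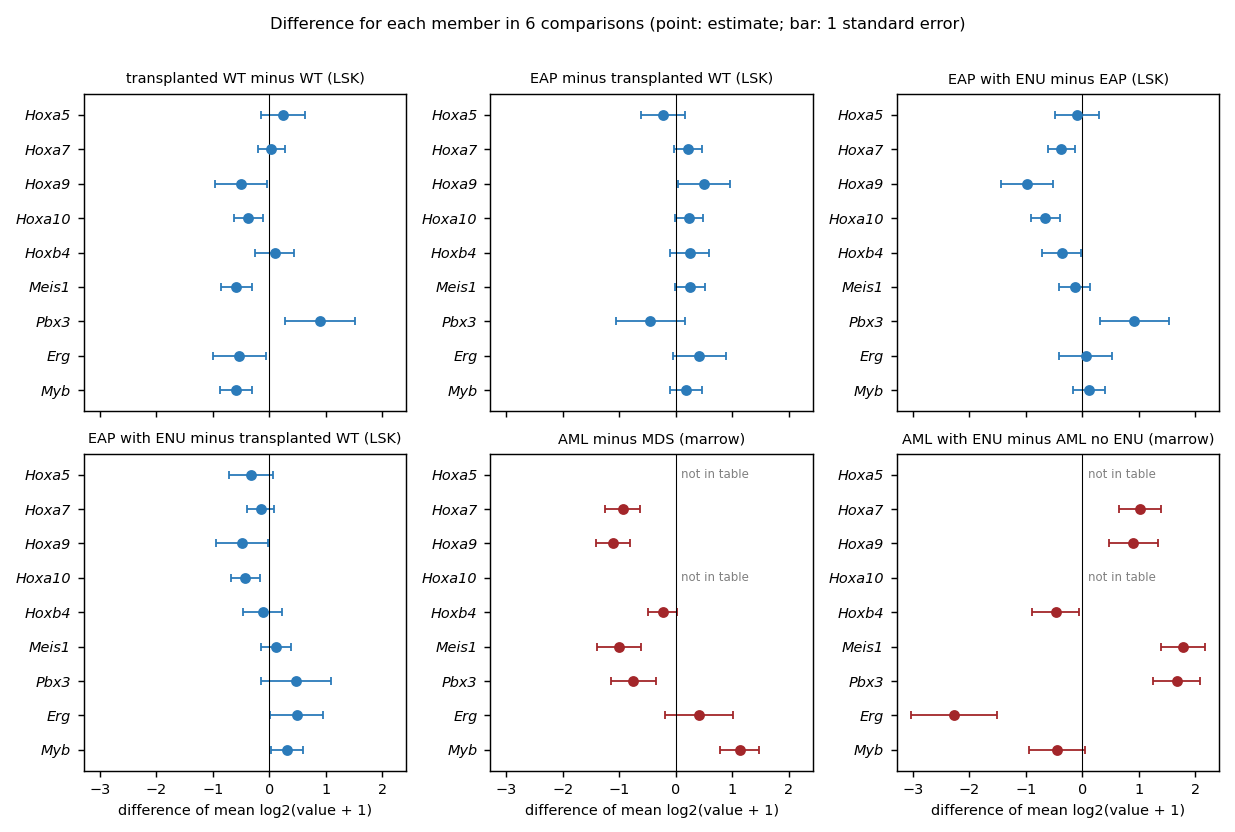
Difference in mean log2(value + 1) of each member in the 4 LSK comparisons and the 2 marrow comparisons, with 1 panel per comparison and genes on the y axis. Points are limma estimates and bars 1 standard error; no member passed an adjusted p of 0.05, and the estimates run from -0.98 to 0.92 in LSK cells and from -2.27 to 1.78 in marrow.

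In bone marrow the Hox and Meis members were low in MDS and lower in most AML libraries, and Myb was higher. Hoxa9 ranged from 1.98 to 3.39 in MDS, with a median of 2.46. In AML 1 to 6 it was 3.0, 0.135, 0.0478, 0.475, 0.446 and 1.07. AML 1 lay within the MDS range and the other 5 lay below all MDS libraries. These values rest on 35 to 64 reads per MDS library and on 55, 3, 1, 10, 10 and 23 reads in AML 1 to 6, so counting error is wide in AML 2 and AML 3.

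Hoxa7 ranged from 1.77 to 3.87 in MDS, with a median of 2.84, and was 2.73, 0.270, 0.0957, 0.665, 1.25 and 2.04 in AML 1 to 6. AML 2, 3, 4 and 5 lay below every MDS library, in the same order at the low end as for Hoxa9, with AML 3 the lowest and AML 2 next. Meis1 ranged from 4.03 to 6.17 in MDS, with a median of 5.45, and was 7.59, 0.943, 0.191, 2.52, 3.71 and 1.85 in AML 1 to 6. AML 1 lay above every MDS library and the other 5 below every one. Pbx3 ranged from 6.72 to 13.5 in MDS, with a median of 9.34, and was 10.3, 1.35, 4.02, 7.41, 12.7 and 3.2 in AML 1 to 6. Only AML 2, 3 and 6 lay below all MDS libraries for Pbx3. Hoxb4 ranged from 6.07 to 8.32 in MDS, and its AML values lay on both sides of that range, 9.89 and 11.6 in AML 1 and 2 and 3.47 to 5.19 in AML 3 to 6.

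Erg ranged from 33.2 to 54.5 in MDS, with a median of 47.3, and was 51.2, 46.4, 443, 14.9, 32 and 85.3 in AML 1 to 6. The 1 library far above the rest was AML 3, in which the B cell genes Ebf1 (420) and Pax5 (208) were also high, against 1.25 to 9.06 for Ebf1 in the other marrow libraries. The B cell list did not move as one there: 6 of its 8 measured genes were at their highest in AML 3, while Ms4a1 (1.00) and Cd22 (1.39) were at their lowest of the 12 libraries. Myb ranged from 122 to 195 in MDS, with a median of 145, and was 147, 239, 502, 204, 550 and 627 in AML 1 to 6. AML 1 lay within the MDS range and the other 5 above it. AML 4 and 5 had T and NK cell marker sums of 2763 and 4770, against 98 to 285 in MDS and AML 1 to 3, with Cd3e at 258 and 947. The sum of 1048 in AML 6 came mostly from Tcf7 (496) and Lck (246), with Cd3e at 5.52, within the MDS range of 4.98 to 12.1. AML 6 also had high Kit (375) and Gata2 (177).

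**Figure D3:**
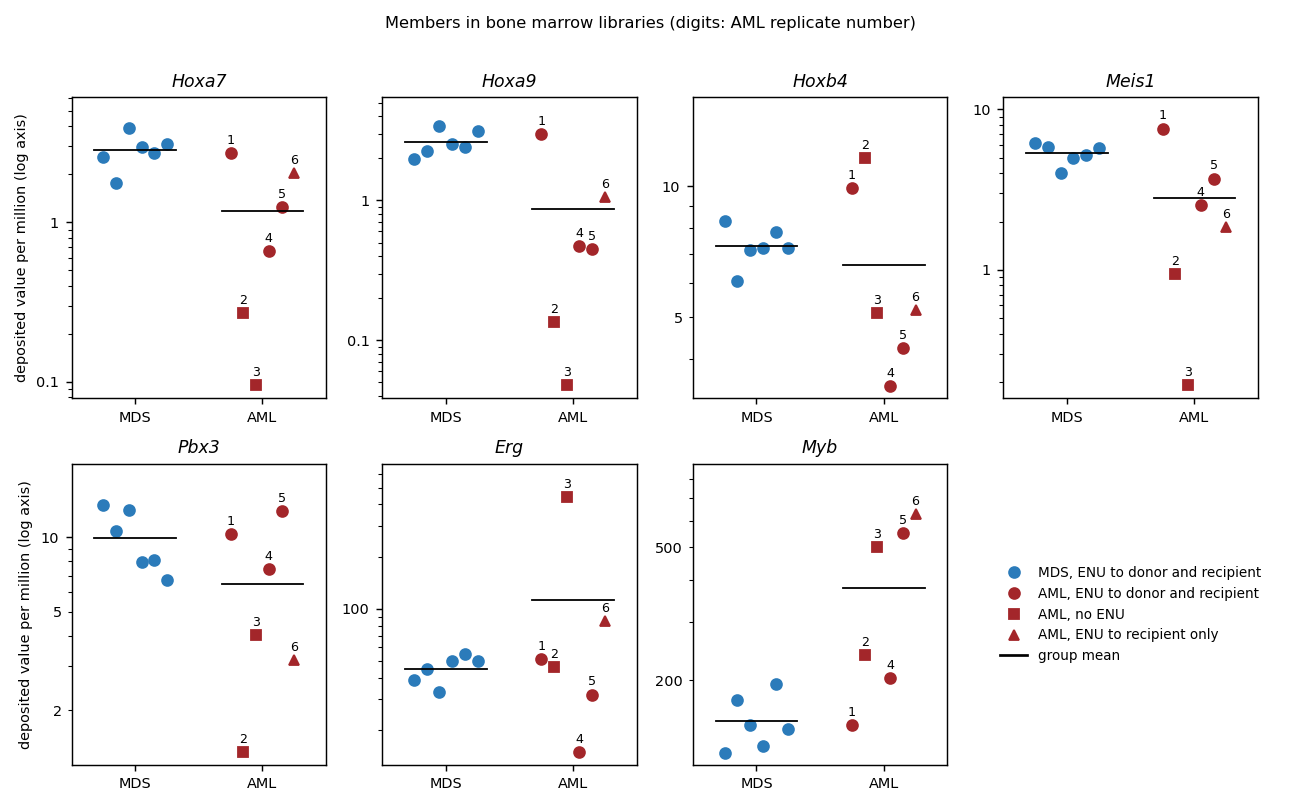
Values of the 7 members in the 12 bone marrow libraries, 1 panel per gene, with MDS and AML on the x axis and the deposited value on a log y axis. Symbols are single libraries, with shape for ENU exposure and the AML replicate number beside each, and lines are group means; AML 1 lies within the MDS range for Hoxa9, at 3.0, and Myb, at 147.

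AML was compared with MDS to ask what separates the 2 diseases. None of the 7 members passed, where 361 of 11273 genes, or 3.2%, were called, 112 higher and 249 lower in AML. Hoxa9 was nearest at -1.11 ± 0.31 (log2, SE, limma adjusted p = 0.0598), with Myb at 1.13 ± 0.34 (adjusted p = 0.0736), Hoxa7 at -0.94 ± 0.31 (adjusted p = 0.0875) and Meis1 at -1.0 ± 0.39 (adjusted p = 0.124). Pbx3 was at -0.75 ± 0.40 (adjusted p = 0.218), Erg at 0.41 ± 0.61 (adjusted p = 0.663) and Hoxb4 at -0.23 ± 0.26 (adjusted p = 0.561). An unadjusted p under 0.05 was reached by 4 of the 7, where 29.3% of all genes reached it. The groups overlapped for all 7, where 3.84% of genes were separated. Because 1 is added before taking logs, the differences understate the change of genes with values near 1, such as Hoxa9 and Hoxa7. The median of the 7 was -0.75, against 0.04 over all genes tested.

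The call turned on AML 1. Without that library 2472 genes, or 21.9%, were called, and 4 of the 7 members passed: Hoxa9 at -1.37 (adjusted p = 0.00532), Myb at 1.36 (adjusted p = 0.0129), Meis1 at -1.30 (adjusted p = 0.0190) and Hoxa7 at -1.12 (adjusted p = 0.0205). Without both AML 1 and AML 3, where 20.6% of genes were called, the same 4 passed: Hoxa9 at -1.26 (adjusted p = 0.00553), Meis1 at -1.02 (adjusted p = 0.0195), Myb at 1.26 (adjusted p = 0.0201) and Hoxa7 at -0.95 (adjusted p = 0.0332). Erg changed sign with AML 3, from 0.41 to -0.16 without it. With only AML 1, 4 and 5, whose ENU exposure matched that of MDS, no gene was called (3036 at an unadjusted p under 0.05). Meis1 was then at -0.27 ± 0.28 (adjusted p = 0.546), Hoxa9 at -0.81 ± 0.34 (adjusted p = 0.159) and Myb at 0.77 ± 0.35 (adjusted p = 0.187). In no fit that left out another single library did a member pass. The count test of edgeR on the recovered reads called 448 genes, 295 higher and 153 lower, with Myb at an adjusted p of 0.0504 and Hoxa9 at 0.141.

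Marker sums also differed between the groups. The neutrophil list (14 of 14 genes measured) was 60342 to 99474 in MDS and 461 to 120145 in AML, and the erythroid list (7 of 10 measured) was 5931 to 19742 in MDS and 16.3 to 4396 in AML. The monocyte list (10 of 10 measured) was 2876 to 7498 in MDS and 92.5 to 17068 in AML. AML 1, where Hoxa9, Hoxa7 and Meis1 were at their highest among the AML libraries, also had the highest neutrophil sum, and AML 3, where they were at their lowest, had the lowest. Between these extremes the order differed. AML 6 had the next to lowest neutrophil sum, 8846, with Hoxa9 (1.07) and Hoxa7 (2.04) next to highest in AML. AML 3 also had the lowest monocyte and erythroid sums. The highest monocyte sum was in AML 2, where the 3 genes were next to lowest. The highest erythroid sum of the AML libraries was in AML 4. The part of cell makeup in the member values was not tested.

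**Figure D4:**
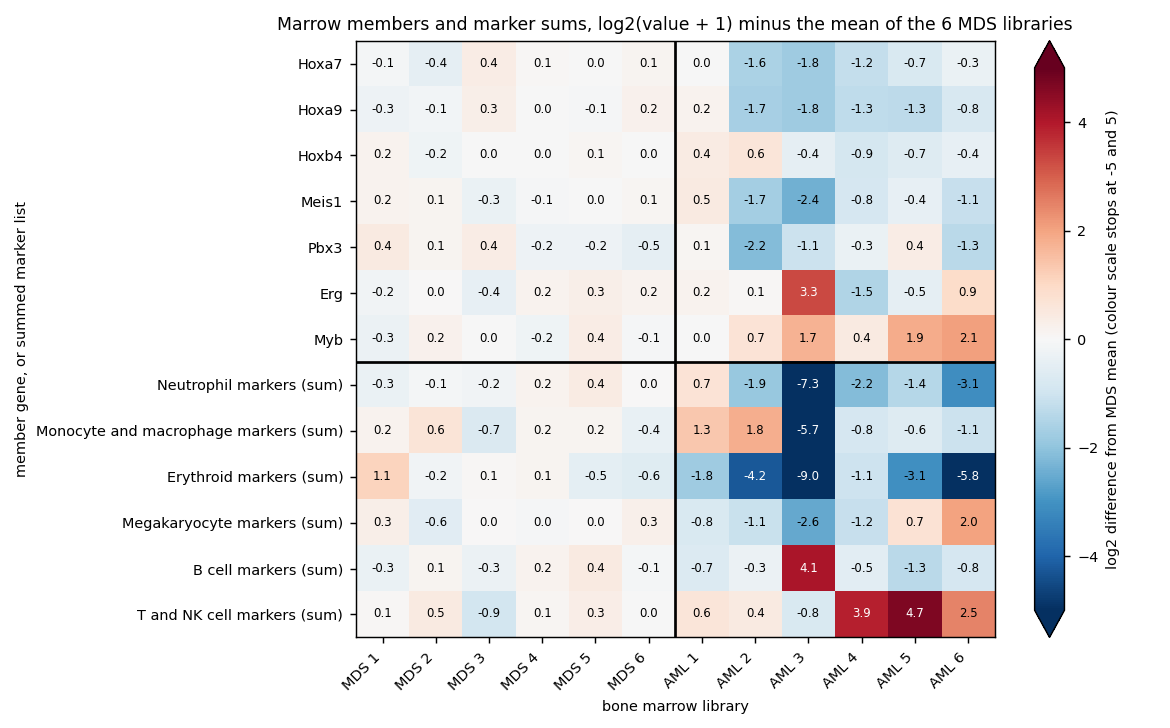
The 7 marrow members and 6 summed marker lists in each marrow library, as log2(value + 1) minus the mean of the 6 MDS libraries, with libraries on the x axis, rows on the y axis and a colour scale that ends at -5 and 5. AML 1 is close to MDS for Hoxa7, at -0.02, and Hoxa9, at 0.16, while AML 3 is at -1.79 and -1.78 for these genes and at 3.28 for Erg.

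**Figure D5:**
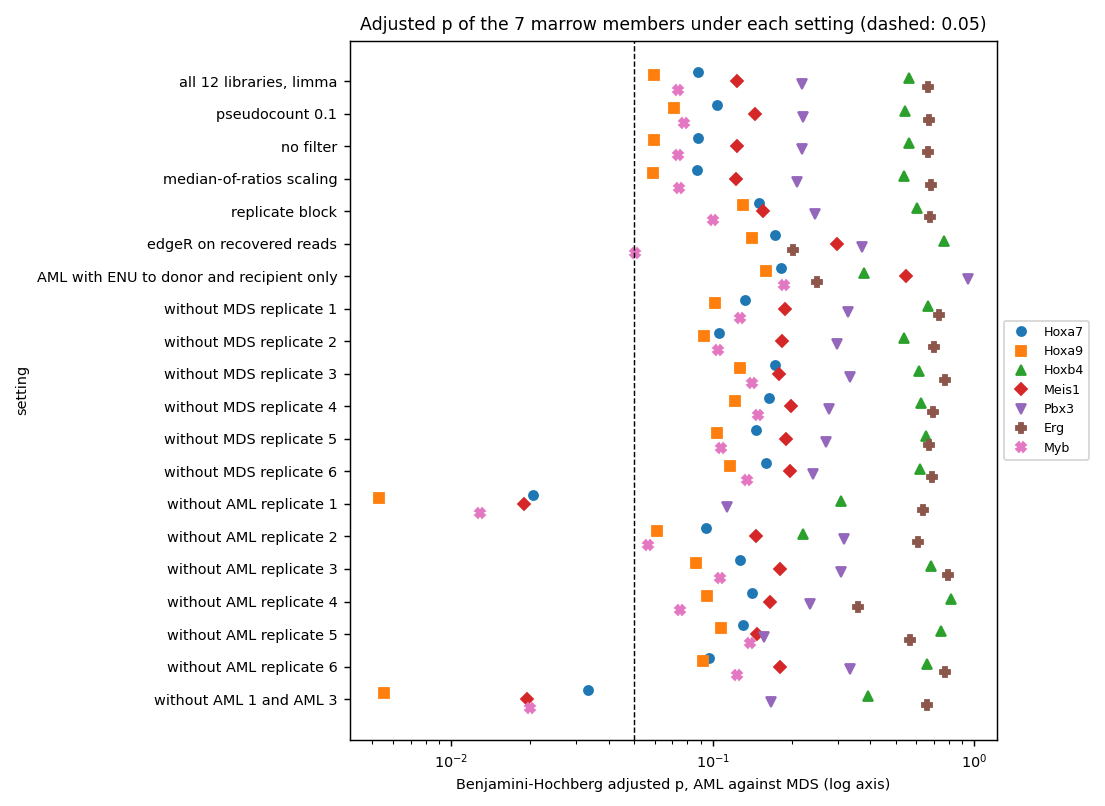
Benjamini-Hochberg adjusted p of the 7 marrow members in AML against MDS, on a log x axis, under each setting on the y axis, with a dashed line at 0.05. Hoxa9, Myb, Meis1 and Hoxa7 lie left of the line in the 2 fits without AML 1, and no other setting puts a member there.

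ENU exposure within AML was examined in a fit to all 12 marrow libraries that set AML 1, 4 and 5 against AML 2 and 3. None of the 7 members passed, where 46 of 11275 genes, or 0.408%, were called. Meis1 was higher with ENU at 1.78 ± 0.39 (log2, SE, limma adjusted p = 0.0782), Pbx3 at 1.67 ± 0.41 (adjusted p = 0.102), Hoxa7 at 1.03 ± 0.37 (adjusted p = 0.274) and Hoxa9 at 0.91 ± 0.43 (adjusted p = 0.418). For each of these 4 the ENU libraries all lay above those without ENU, where 15% of genes were separated, 8.31% in that direction. An unadjusted p under 0.05 was reached by 4 of the 7, Meis1, Pbx3, Hoxa7 and Erg, against 12.5% of genes. Hoxa9 did not reach it (limma unadjusted p = 0.058). Erg was at -2.27 ± 0.76 (adjusted p = 0.238), Hoxb4 at -0.47 ± 0.42 (adjusted p = 0.719) and Myb at -0.44 ± 0.50 (adjusted p = 0.798). The 2 libraries without ENU differed from each other, AML 2 with Mecom at 1022 and Csf1r at 1965, AML 3 with Mecom at 0.239 and Csf1r at 10.9.

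Either of these 2 libraries decided calls here. Without AML 2, where 22.7% of genes were called, Erg passed at -3.88 (adjusted p = 0.000636) and Meis1 at 2.13 (adjusted p = 0.00884). Without AML 3, where 2.12% were called, Pbx3 passed at 2.22 (adjusted p = 0.0365). With 0.1 added in place of 1, where 0.958% were called, Meis1 passed at 2.95 (adjusted p = 0.0490). With 1 library left on the side without ENU, that library is assumed to vary like the other groups. Most marker lists differed in the comparison of all 5 libraries. The neutrophil list had 14 of 14 genes higher with ENU, with a median of 3.52 against 0.03 over all genes, and none passed. Higher with ENU were also 7 of 7 erythroid genes (median 4.33), 10 of 10 monocyte genes (1.36), 14 of 15 T and NK cell genes (2.34) and 7 of 8 megakaryocyte genes (1.55). Of 8 B cell genes 2 were higher and 6 lower (median -2.64). The part of these lists in the member values was not tested.

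The related genes were described from lists chosen with earlier results known. Of 16 other HoxA and HoxB genes, 8 could be tested in LSK cells and none passed in any of the 4 comparisons. In EAP against transplanted WT 6 of the 8 were above 0, with a median of 0.37 against -0.02 over all genes. Only 2 of the 8 were above 0 in EAP with ENU against EAP, with a median of -0.25 against 0.03. Both comparisons share the same EAP libraries. In EAP with ENU against transplanted WT 5 of the 8 were above 0, with a median of 0.05 against 0.01. The library EAP 2 held the highest LSK value of Hoxa2, Hoxa3, Hoxb3, Hoxb5 and Hoxb6, but not of Hoxa4, Hoxa6 or Hoxb2. In marrow only Hoxb3 could be tested, at 2.35 in AML and 3.61 in MDS (limma, -0.67 ± 0.35, adjusted p = 0.216). None of 18 HoxC and HoxD genes was tested in either table. Of 9 other TALE genes, 8 were tested in AML against MDS and none passed. Tgif1, a repressor of retinoid and TGF-beta signalling, was nearest at a mean of 54.4 against 22.3 (1.13 ± 0.32, adjusted p = 0.0619), and Pknox2 was at 1.46 against 3.59 (-1.29 ± 0.45, adjusted p = 0.0972). Within AML, where 0.408% of genes were called, Tgif2 was higher with ENU at 10.4 against 1.53 and passed (2.20 ± 0.33, limma adjusted p = 0.0323). No gene was called in that comparison with the replicate block or with only the compared libraries.

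The upstream regulators of Hox genes did not pass. Of 17 MLL, menin and elongation cofactors tested, 14 were above 0 in AML against MDS and none passed, with a median of 0.26 against 0.04 over all genes. Men1, which anchors MLL to HoxA genes, had a mean of 74.9 against 42.2 (0.71 ± 0.24, adjusted p = 0.0918), and Npm1, a nucleolar chaperone, 230 against 116 (0.83 ± 0.29, adjusted p = 0.0964). Of 16 Polycomb subunits, which keep Hox genes silent, 13 were above 0 and none passed, with a median of 0.29. Cbx2 was at a mean of 29.2 against 3.56 (1.91 ± 0.63, adjusted p = 0.0874), with values of 2.39 to 4.45 in MDS, 4.10 and 3.82 in AML 1 and 2 and 16.5 to 109 in AML 3 to 6.

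Of 14 Hoxa9 and Meis1 target genes tested, 7 were above 0 and 7 below in AML against MDS and none passed. Hlf, a stem cell factor, was lower in every AML library than in MDS, at a mean of 2.01 against 5.70 (-1.33 ± 0.35, adjusted p = 0.0547). Gfi1b was at 16.3 against 50.7 (-1.99 ± 0.63, adjusted p = 0.0787). Within AML, where 0.408% of genes were called, Hlf was higher with ENU at 3.43 against 0.413 and passed (1.65 ± 0.30, limma adjusted p = 0.0477). As for Tgif2, the call was absent with the replicate block and with only the compared libraries. Of the 6 factors that act with Erg in stem cells, Tal1 fell in AML, at a mean of 68.3 against 258 (-2.01 ± 0.50, adjusted p = 0.0499), with 16.3 to 139 in AML and 147 to 606 in MDS. Tal1 is also an erythroid factor, and the erythroid gene Epor fell beside it, at a mean of 16 against 81.5 (-3.02 ± 0.74, adjusted p = 0.0479). Leaving out any 1 MDS library, AML 5 or AML 6 left 0 or 1 called genes in all, so these calls near the threshold rest on single libraries. Of 12 genes of the Myb family and Myb targets, 4 were above 0 and none passed. Myc was at a mean of 165 against 61.2 (1.15 ± 0.40, adjusted p = 0.0970) and Ccnb1 at 21.8 against 38.7 (-0.86 ± 0.27, adjusted p = 0.0767). In LSK cells no gene of these target, cofactor, Polycomb, TALE or Erg partner lists passed in any of the 4 comparisons.

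The genes whose log2 values followed each member most closely over the 12 libraries of a table were found by Pearson's r, as a description with no test. In marrow they were Gas7 (r = 0.966), Fam217b and Reck for Hoxa9, and Map3k6 (0.967), Pink1 and Bahcc1 for Hoxa7. For Meis1 they were Camp (0.978), a neutrophil granule gene, Orm1 and Siglec12. Those of Myb were Harbi1 (0.967), Kifap3 and Ccdc181, and those of Erg were Wdfy4 (0.971), Plscr3 and Slc25a1. Pbx3 was followed by Rrm1 (0.914), Clcn2 and Fanca, and Hoxb4 by Pik3r6 (0.928), Scarb1 and Serp1. These 12 libraries share 1 normalisation and the AML libraries differ in cell markers as given above. For Erg, Spearman's rho was 0.804 with Wdfy4, 0.734 with Plscr3 and 0.678 with Slc25a1. In LSK cells Hoxa9 was closest to Mysm1 (0.972), Mospd1 and Ppm1b, Meis1 to Trpm7 (0.967), Suv420h1 and Btbd3, Myb to Nek1 (0.968), Xpo1 and Glce, and Erg to Dido1 (0.957), Zbtb7a and Wdr26. There Hoxa5 was closest to Med12 (0.945), Nfatc1 and Slc38a9, Hoxa7 to Fuz (0.938), Taf4a and Kctd13, Hoxa10 to genes that include Eya2 (0.922) and Tpp1, Hoxb4 to Gps2 (0.907), Brd1 and Hist2h2aa1, and Pbx3 to Sf3a2 (0.959), Lmnb2 and Ctps.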

How the data were processed

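RNA was sequenced from 12 LSK and 12 bone marrow libraries using a TruSeq stranded kit. Reads were processed, per the submitters' processing notes, with bcl2fastq, FastQC, TopHat, SAMtools and edgeR against mm10, with no versions given. No source used here names the counting program or annotation. The deposited values are a signal per gene that the authors scaled to library size. The marrow values came out as whole reads for 99.99% to 100% of entries within 0.05 reads. For marrow, 155 repeated rows were merged, leaving 11275 genes of 11430 rows.

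Differences were computed with limma 3.58.1 in R 4.3.3 (empirical Bayes with trend) on log2(value + 1), over all 12 libraries of a table, keeping genes that reached a value of 1 in a number of libraries equal to the smaller group. P-values were adjusted by Benjamini-Hochberg over all genes tested, with a threshold of 0.05. This was tested on simulated data. edgeR 4.0.16 (quasi-likelihood) was run on the recovered marrow reads as an alternative. The other settings were no filter on low values, a pseudocount of 0.1, scaling by median of ratios, only the compared libraries, AML with ENU to donor and recipient only, a replicate block, and leaving out each library. The fits without WT 2, transplanted WT 3 and EAP 1, and without AML 1 and AML 3, were chosen after seeing the data. Levels per kilobase used union exon lengths from GENCODE vM21, found for 96.5% of LSK and 97.2% of marrow genes.

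The members and the 16 gene lists were chosen with earlier results of these data known. Besides the members, each list's genes past the threshold were named, or otherwise its 2 genes with the smallest unadjusted p in AML against MDS, and for each member the 3 genes with the highest Pearson r among genes with a mean of at least 5. Results for some genes are not reported here.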

Additional observations from a re-analysis of the deposited data

Results flagged for a closer look

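Hoxa9 in AML was picked out because its highest library, AML 1, lay far from the others: its value was 3.0 and the next was 1.07, a gap of 0.656 of the range over the 6 libraries, above Dixon's 95% critical value for 6 values. Erg in AML was picked out in the same way by AML 3, at 443 with the next value at 85.3, a gap of 0.836 of the range. If values were normally distributed, chance alone would pick out about 1 in 20 groups. The gaps were taken on values without logs and may differ on a log scale.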

How the results depend on the processing

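Over all settings 598 member values kept their direction and their side of the threshold, 12 passed it newly, all in marrow, and 31 changed sign. The cause of these changes was not tested. Called genes in transplanted WT against WT numbered 3, and 1 with the replicate block, 0 with only the compared libraries, 490 without WT 2, transplanted WT 3 and EAP 1, and 1 to 5 with 1 library left out. For EAP against transplanted WT they numbered 3, and 0, 0, 1 and 0 to 1 in the same order. For EAP with ENU against EAP they numbered 0, and 1 without the 3 libraries. For EAP with ENU against transplanted WT they numbered 2, and 1 with a pseudocount of 0.1, 1 with the replicate block, 6 with only the compared libraries, 6 without the 3 libraries and 0 to 1 with 1 library left out. For AML against MDS they numbered 361, and 145 with a pseudocount of 0.1, 141 with the replicate block, 0 with AML given ENU in donor and recipient only (3036 at an unadjusted p under 0.05), 2317 without AML 1 and AML 3, and 0 to 2472 with 1 library left out. For ENU within AML they numbered 46, and 108 with a pseudocount of 0.1, 0 with the replicate block, 0 with only the compared libraries, 15 with edgeR and 14 to 2559 with 1 library left out. Deviations from group means correlated between same-numbered libraries at -0.637 to 0.584 in LSK (5 of 18 pairs above 0.1) and -0.156 to 0.232 in marrow (2 of 6). These values do not show a pairing by number. They cannot exclude it, because deviations within small groups are tied to each other. The LSK libraries that stood apart also carry different numbers.

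Without the 3 LSK libraries, signs turned for Hoxa5 in transplanted WT against WT (-0.019), Pbx3 in EAP against transplanted WT (0.15), Erg (-0.38) and Myb (-0.15) in EAP with ENU against EAP, and Erg (-0.037) and Meis1 (-0.13) in EAP with ENU against transplanted WT. With AML given ENU in donor and recipient only, Erg was at -0.60, Pbx3 at 0.034 and Meis1 at -0.27 against MDS, and without AML 1 and AML 3 Erg was at -0.25. With 1 library left out, values crossing 0 in transplanted WT against WT ran from -0.17 to 0.52 for Hoxa5, -0.14 to 0.25 for Hoxa7, -0.80 to 0.071 for Hoxa9 and -0.12 to 0.35 for Hoxb4. In EAP against transplanted WT they ran from -0.10 to 0.87 for Erg, -0.42 to 0.067 for Hoxa5, -0.056 to 0.46 for Myb and -0.89 to 0.44 for Pbx3. In EAP with ENU against EAP they ran from -0.38 to 0.32 for Erg, -0.39 to 0.10 for Hoxa5 and -0.15 to 0.36 for Myb. In EAP with ENU against transplanted WT they ran from -0.037 to 0.78 for Erg, -0.35 to 0.11 for Hoxb4 and -0.13 to 0.25 for Meis1. In AML against MDS Erg ran from -0.16 to 0.80. For ENU within AML they ran from -0.99 to 0.051 for Hoxb4 and -0.99 to 0.095 for Myb.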

Other observations

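In LSK cells, 2 genes of the marker lists passed the limma test. Selp, which encodes P-selectin, rose in transplanted WT against WT, at a mean of 131 against 15.6 (log2 3.02 ± 0.29, adjusted p = 0.00385). Cd14, a monocyte receptor for lipopolysaccharide, rose in EAP against transplanted WT, at a mean of 16.7 against 0.913 (3.18 ± 0.41, adjusted p = 0.0262). Cd14 also rose in EAP with ENU against the same transplanted WT libraries, at 24.2 (3.65 ± 0.41, limma adjusted p = 0.0198). No gene was called in EAP against transplanted WT with the replicate block, with only the compared libraries or without any 1 transplanted WT library. With only the compared libraries none was called in transplanted WT against WT either. The altered alleles and the Trp53 shRNA differed together in both Cd14 comparisons, and their part was not tested. The monocyte list as a whole did not rise with it. In EAP 2 of its 9 tested genes were above 0 and 7 below, with a median of -0.90. In EAP with ENU 4 were above and 5 below, with a median of -0.14. In marrow the macrophage adhesion gene Vcam1 fell in AML against MDS, at 23.5 against 69.6 (-1.76 ± 0.43, limma adjusted p = 0.0473). Like that of Tal1, this call lay near the threshold and rested on single libraries. Within AML Epor was higher with ENU, at 28.0 against 1.62 (3.58 ± 0.64, limma adjusted p = 0.0450). That call was absent with the replicate block and with only the compared libraries.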
